A study of Mus musculus with 8 samples.

Results

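The genes described are the 3 peroxisome proliferator-activated receptors (Ppara, Ppard and Pparg), their coactivator Ppargc1a, and 6 enzymes of mitochondrial fatty acid oxidation (Cpt1a, Cpt2, Acadm, Acadl, Acadvl and Hadha). They were chosen by name, for their place in this pathway, with earlier results of these data known. They make up 10 of the 20871 genes and 20 of the 35486 peaks in the table of H3K4me3, a histone mark of active promoters. The study sorted CD45-CD31-EpCAM+ cells from mouse lung tumors and profiled the mark by CUT&Tag, to follow how loss of the lipid peroxidase GPX4 touches the chromatin of lipid metabolism genes. The KL group (with Lkb1fl/fl) and the KLG4m/m group (with Lkb1fl/fl and Gpx4m/m) had 2 libraries each. H3K27ac was not analysed here.

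The groups shared their tumor-initiating alleles, Lkb1fl/fl among them, so every comparison is between tumors in which Lkb1 is a target of Cre. Per the methods for these models, mice were infected intranasally with an adenovirus carrying Cre at 8 to 10 weeks of age, received tamoxifen from 5 weeks later, every other day for 2 weeks, and were rested for 3 weeks, which gives the 10 weeks after infection on the labels. In the Gpx4 m/m allele, Cre removes a STOP cassette that blocks DreERT2, and tamoxifen then lets Dre delete exons 5 to 7. Deletion is thus limited to cells that took up the virus and their descendants. The protocol speaks of 3 mice in total, which does not match the 4 libraries of this mark. The paper's figure legend for these assays gives 2 mice per group, which does match. The p-values measure the spread between libraries, and that each library is a separate animal rests on this legend.

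The PPARs are nuclear receptors that are activated by fatty acids, pair with retinoid X receptors and bind a repeated AGGTCA half-site. PPARα is best known for switching on fatty acid oxidation, PPARδ acts on oxidation in many tissues, and PPARγ drives fat storage and, in the lung, lipid handling in alveolar macrophages. Long-chain fatty acids enter mitochondria through the carnitine shuttle and are then shortened by acyl-CoA dehydrogenases and the trifunctional protein.

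The promoters of the 10 genes differ widely in base composition, and 4 windows are shown to set the genes that the results turn on beside each other. Each window runs from 250 bases before to 50 bases after a RefSeq transcription start in GRCm38.p6, is written 5′ to 3′ along the gene's strand, and has its CpG dinucleotides in capitals. The peak table uses another build, so these windows were not laid over its coordinates. They are the Ppara window (chr15:85735526-85735825, plus strand), the first and the third of 3 Pparg windows in order along the chromosome (chr6:115360894-115361193 and chr6:115421816-115422115, plus strand) and the Acadvl window (chr11:70015379-70015678, minus strand).
Ppara: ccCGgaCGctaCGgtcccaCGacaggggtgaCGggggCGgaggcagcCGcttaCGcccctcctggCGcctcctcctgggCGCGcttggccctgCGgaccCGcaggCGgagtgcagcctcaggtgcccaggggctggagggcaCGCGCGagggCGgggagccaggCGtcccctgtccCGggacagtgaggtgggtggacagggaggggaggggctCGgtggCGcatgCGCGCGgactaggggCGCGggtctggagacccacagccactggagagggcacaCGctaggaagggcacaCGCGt
Pparg window 1: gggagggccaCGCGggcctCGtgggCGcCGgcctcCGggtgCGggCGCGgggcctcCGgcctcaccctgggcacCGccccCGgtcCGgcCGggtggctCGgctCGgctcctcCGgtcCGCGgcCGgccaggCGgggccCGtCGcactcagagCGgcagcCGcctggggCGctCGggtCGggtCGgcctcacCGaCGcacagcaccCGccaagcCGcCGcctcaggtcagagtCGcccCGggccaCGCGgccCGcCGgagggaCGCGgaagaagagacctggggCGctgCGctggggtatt
Pparg window 3: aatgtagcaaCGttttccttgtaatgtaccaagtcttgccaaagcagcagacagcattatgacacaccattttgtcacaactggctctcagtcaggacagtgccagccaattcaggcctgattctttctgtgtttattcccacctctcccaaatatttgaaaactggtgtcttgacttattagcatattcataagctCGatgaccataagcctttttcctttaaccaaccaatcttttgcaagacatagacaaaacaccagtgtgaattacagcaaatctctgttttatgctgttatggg
Acadvl: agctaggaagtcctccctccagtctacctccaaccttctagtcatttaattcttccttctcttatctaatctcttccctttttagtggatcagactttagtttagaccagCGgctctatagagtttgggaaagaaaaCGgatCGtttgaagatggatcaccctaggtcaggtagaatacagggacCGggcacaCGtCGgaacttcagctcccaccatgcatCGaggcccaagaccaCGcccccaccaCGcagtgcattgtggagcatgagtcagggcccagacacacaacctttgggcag

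The Ppara window held 30 CpG, the first Pparg window 44, the third Pparg window 2 and the Acadvl window 9, against a median of 7 over all 32851 mouse windows. The other windows of these genes held 5 (Ppargc1a) to 34 (Acadl) CpG. All 10 genes had a window, and Pparg had 3, which made 12. The half-site AGGTCA, searched on both strands, was in 5 of the 12 windows and in 16.3% of all windows. The 5 were the first and second Pparg windows and those of Cpt1a, Acadm and Acadvl; in the Acadvl window the half-site begins 87 bases upstream of the start. The full direct repeat AGGTCANAGGTCA was in none of the 12 and in 13 windows of the whole table, and a letter match is not a bound site.

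The libraries held 3244495 to 3463731 reads in peaks, and values are CPM, the reads of a peak scaled to each library's reads in peaks by the TMM method, so a change of the mark by the same factor at every peak cannot be seen. Every member peak is 400 bp long, so CPM values of different peaks can be compared without a length correction. Gpx4 had 1 listed peak, at its promoter and outside the deleted exons, so it does not check the deletion; its summed reads were higher in KLG4m/m (log2 fold change 0.39, adjusted p = 0.00178), and so were those of Stk11, which encodes LKB1 (0.36, adjusted p = 6.36e-05). Some markers of cell types also differed between the groups. Here a marker rose or fell if the adjusted p of its summed reads was under 0.05. Over all genes 5.38% were higher and 9.63% lower in KLG4m/m by the same test. Counts of 1 or 2 markers in a list are too small to be set apart from these shares. Of 10 alveolar type 2 markers, 8 had a peak and 5 of them fell, with a summed level of 363 to 373 CPM in KL and 280 to 294 CPM in KLG4m/m. Of 11 lymphocyte markers, 9 had a peak and 3 rose, with a summed level of 200 to 217 CPM in KL and 265 to 266 CPM in KLG4m/m. Of 14 macrophage markers, 13 had a peak, 2 rose and 1 fell, with 439 CPM in both KL libraries and 480 to 493 CPM in KLG4m/m. Of 8 epithelial markers, all with a peak, 2 fell, with 376 to 384 CPM in KL and 334 to 337 CPM in KLG4m/m. The sort marker Epcam was lower in KLG4m/m (log2 fold change −0.82, adjusted p = 1.56e-06), the lung lineage factor Nkx2-1 was at −0.13 (adjusted p = 0.576), the leukocyte gene Ptprc, which encodes CD45, was at 0.22 (adjusted p = 0.163), and the endothelial gene Pecam1, which encodes CD31, was at 0.19 (adjusted p = 0.222). Of 9 endothelial markers, all with a peak, 1 rose and 1 fell (311 to 342 CPM in KL, 327 to 338 CPM in KLG4m/m), and of 9 fibroblast markers 4 had a peak and 1 rose (107 to 109 CPM against 114 to 120 CPM). The part of these shifts in the results that follow was not tested.

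At its strongest promoter peak every gene carried the mark in all 4 libraries. The levels, as means over the 4 libraries, ran from 110.5 ± 2.18 CPM (SD, n = 4) at Acadm, the medium-chain acyl-CoA dehydrogenase, down to 34.3 ± 2.15 CPM at Ppard. Behind Acadm came Cpt2 at 95.1 CPM and Hadha at 92.3 CPM, then Acadvl at 78.5 CPM, Acadl at 66.7 CPM and Cpt1a at 61.6 CPM. Ppargc1a had 61.1 CPM, Pparg 59.9 CPM and Ppara 50.0 CPM. The 6 enzyme promoters thus stood above the promoters of the coactivator and the 3 receptors in the order of means. The neighbours in this order whose ranges over the 4 libraries did not overlap were Acadm and Cpt2, and Ppara and Ppard. All other neighbours overlapped, so the order from Cpt2 to Ppara is not resolved step by step. Among the 17073 peaks within 1 kb of a start, whose median was 41.2 CPM, Acadm was above 96.7% and Ppard above 44.1%.

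**Figure D1:**
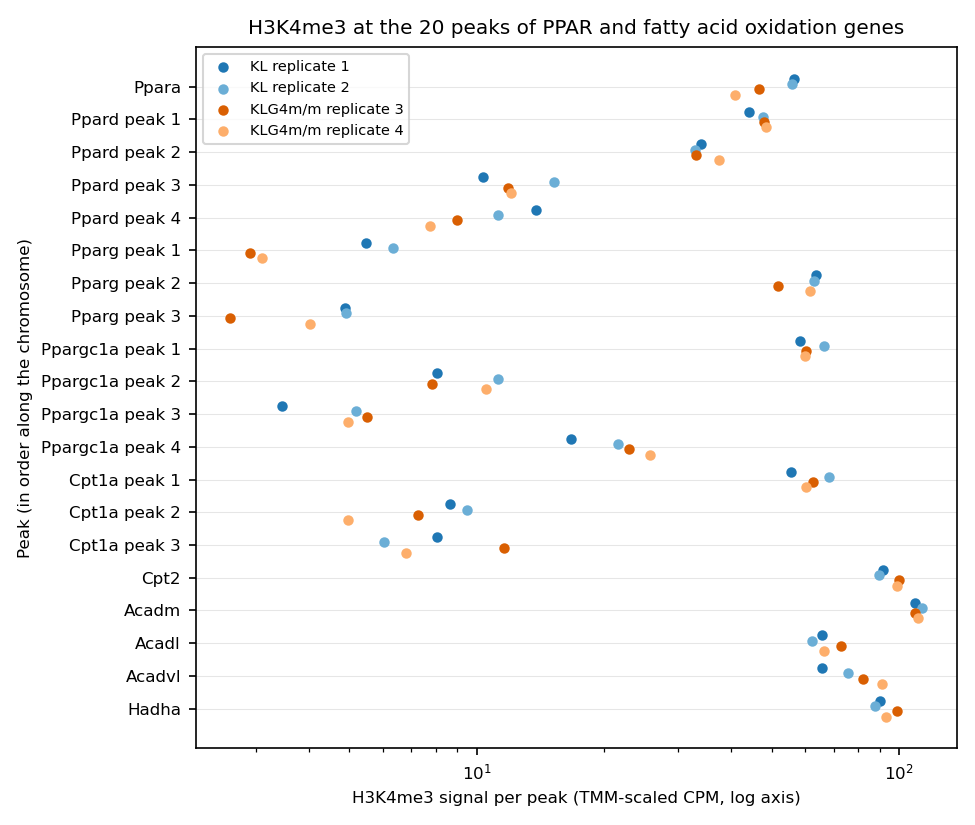
H3K4me3 at each of the 20 peaks of the 10 genes, in TMM-scaled CPM on a log axis, with 1 point for each of the 2 KL and 2 KLG4m/m libraries. Peaks of a gene are numbered along the chromosome; the 4 points of Acadm lie near 110.5 CPM and the outer Pparg peaks lie between 2.61 and 6.34 CPM.

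No peak of the 10 genes passed the test between KLG4m/m and KL, an edgeR quasi-likelihood test on the counts with an adjusted p under 0.05 over all peaks. Of all peaks 8.62% passed, 3.1% higher and 5.52% lower in KLG4m/m, or 1099 and 1960 peaks, against 33 and 250 in DESeq2. DESeq2 and limma also called 0 of the 20. At an unadjusted p under 0.05 there were 4 of the 20 peaks, against 24.6% of all peaks, and in 12 of the 20 the groups did not overlap, 6 in each direction, against 54.2% of all peaks. With reads summed over the peaks of a gene, 1 of the 10 genes was higher (Acadvl, against 5.38% of all genes) and 1 was lower (Ppara, against 9.63%). At an unadjusted p under 0.05 there were 3 of the 10 genes, against 28.8% of all genes.

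Ppara had a single peak, over a start on chromosome 15 (85619246 to 85619646 in the table's own coordinates). The KL libraries had 196 and 194 reads there, the KLG4m/m libraries 161 and 132. Both KLG4m/m libraries lay below both KL libraries, and the KL pair was nearly identical. In CPM these were 56.1 ± 0.357 in KL and 43.8 ± 4.12 in KLG4m/m (SD, n = 2). The log2 fold change was −0.36 (95% interval −0.60 to −0.11), with an adjusted p of 0.0588 among peaks and 0.0325 among genes. The same reads were thus on different sides of the threshold in the test over 35486 peaks and in that over 20871 genes. Without 1 library at a time the gene-level change stayed between −0.46 and −0.26. Each such fit leaves 1 library in a group, so only the size of the change is given here.

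Pparg had 3 peaks, and its summed reads were 257 in each KL library and 197 and 222 in the KLG4m/m libraries. The log2 fold change of the sum was −0.24 (95% interval −0.45 to −0.03, adjusted p = 0.110), which did not pass. The main promoter peak (chromosome 6, 115338471 to 115338871) held 87.5% of the reads, with 221 and 218 against 178 and 199, a log2 fold change of −0.16 (adjusted p = 0.387). The groups did not overlap there, but the higher KLG4m/m library, at 61.6 CPM, was close to the lower KL library at 62.8 CPM. The other peaks were 13.5 and 14.6 times weaker. The first lay in intergenic DNA 16.1 kb upstream of the nearest Pparg start and held 19 and 22 reads in KL and 10 in each KLG4m/m library (log2 fold change −0.97, 95% interval −1.75 to −0.19, adjusted p = 0.112). The third lay 2.43 kb downstream of the start of NM_011146.4 and held 17 in each KL library and 9 and 13 in KLG4m/m (−0.57, 95% interval −1.38 to 0.25). All 3 peaks were lower in both KLG4m/m libraries than in either KL library, and at the outer peaks, with few reads, the intervals reached down to 0.297 and 0.384 of the KL level.

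Ppard had 4 peaks and no net difference was detected: its summed reads were 355 and 371 in KL and 351 and 341 in KLG4m/m (log2 fold change −0.01, 95% interval −0.18 to 0.16, adjusted p = 0.936). Its strongest listed peak lies in exon 6 of the neighbouring gene Def6, 8.78 kb upstream of Ppard, and held 153 and 165 reads against 165 and 156 (0.07). The table assigns each peak to 1 gene, so this peak may belong to either gene. The promoter peak held 118 and 114 against 114 and 121 (0.08), and an intron peak 36 and 53 against 41 and 39 (−0.10). The groups overlapped at both. A peak at a downstream start (XM_036160409.1) held 48 and 39 reads in KL and 31 and 25 in KLG4m/m, a log2 fold change of −0.58 (95% interval −1.08 to −0.07, adjusted p = 0.143). Both KLG4m/m libraries were below both KL libraries at this start, and set against the other Ppard peaks it was 0.57 lower on the log2 scale (edgeR diffSpliceDGE, adjusted p = 0.345). None of the 14 peaks in genes with several peaks passed that test, against 1.29% of the peaks tested.

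Over the 8 PPAR peaks the median log2 fold change was −0.26, and 6 were below 0. Over the 8 enzyme peaks it was 0.12, and 5 were above 0. Over all 35486 peaks it was 0.01. The difference between the receptors and the enzymes was not tested, since peaks of a gene and genes of a pathway are not replicates.

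Ppargc1a, the coactivator that raises mitochondrial biogenesis and oxidation, had 4 peaks spread over 562 kb. Its summed reads were 300 and 363 in KL and 332 and 326 in KLG4m/m (log2 fold change 0.04, 95% interval −0.13 to 0.22, adjusted p = 0.795). The KLG4m/m libraries lay inside the range of the KL pair. The main peak, the most downstream of the 4, held 202 and 231 reads against 207 and 193 (−0.06), or 63.1% of the gene's reads. A second start 15.3 kb upstream held 28 and 39 against 27 and 34 (−0.08), and an intron peak 12 and 18 against 19 and 16 (0.28). The groups overlapped at all of these. The far upstream peak, 562 kb from the main one and 1.33 kb downstream of the start of NM_001402987.1, held 22.3% of the reads, with 58 and 75 in KL and 79 and 83 in KLG4m/m (0.34, 95% interval −0.02 to 0.71, adjusted p = 0.237). It was the only Ppargc1a peak at which both KLG4m/m libraries were above both KL libraries.

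**Figure D2:**
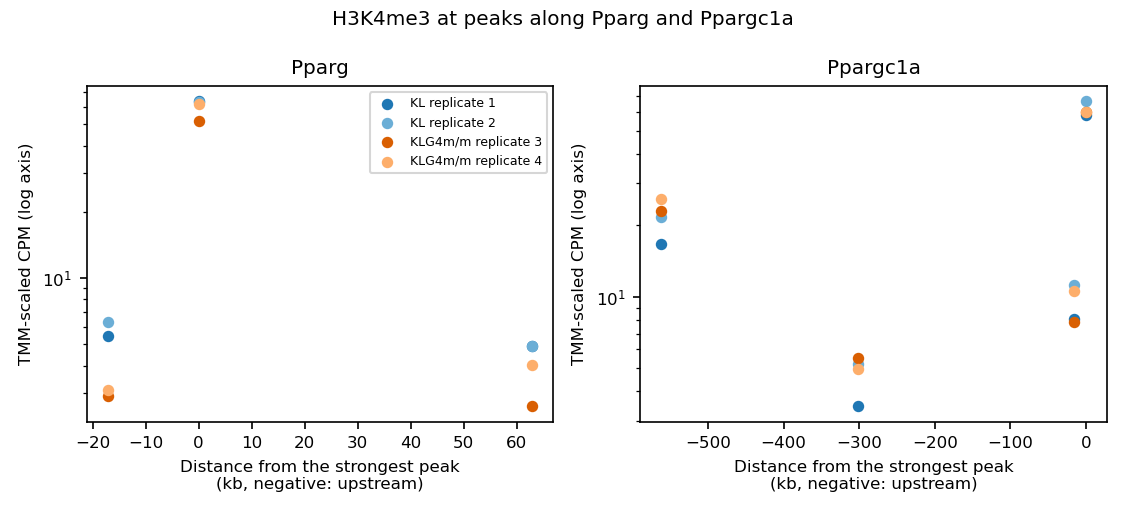
H3K4me3 in TMM-scaled CPM (log axis) at the 3 peaks of Pparg and the 4 peaks of Ppargc1a, plotted by distance in kb from the gene's strongest peak, with negative values upstream and 1 point per library. The outer Pparg peaks lie at 2.61 to 6.34 CPM in all libraries, while the far upstream Ppargc1a peak reaches 16.7 to 25.7 CPM.

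The carnitine palmitoyltransferases start the shuttle (Cpt1a, on the outer mitochondrial membrane, and the rate-limiting step) and end it (Cpt2, on the inner membrane). The Cpt1a promoter held 193 and 237 reads in KL and 216 and 194 in KLG4m/m, a log2 fold change of −0.01 (95% interval −0.24 to 0.22, adjusted p = 0.963). The KLG4m/m values lay between the KL values. A weaker Cpt1a peak 2.70 kb upstream of a second start held 30 and 33 against 25 and 16 (−0.56, 95% interval −1.15 to 0.03), and one in intron 5 held 28 and 21 against 40 and 22 (0.39, 95% interval −0.21 to 1.00). These point in opposite directions, and the sum over the gene was at −0.03 (adjusted p = 0.897). Cpt2, with 1 promoter peak, held 319 and 311 in KL and 345 and 320 in KLG4m/m (0.14, 95% interval −0.04 to 0.31, adjusted p = 0.351). In CPM both KLG4m/m libraries, at 100.1 and 99.1, were above both KL libraries, at 91.8 and 89.6.

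The acyl-CoA dehydrogenases take the first step of each round of β-oxidation, on medium (Acadm), long (Acadl) and very long (Acadvl) chains. Acadvl had 1 promoter peak (chromosome 11, 69905929 to 69906329 in the table's coordinates). Its reads numbered 228 and 262 in the KL pair and 283 and 294 in the KLG4m/m pair. Both KLG4m/m libraries lay above both KL libraries, and the spread within each group was a large part of the gap. The levels were 70.5 ± 6.98 CPM and 86.6 ± 6.33 CPM (SD, n = 2). The log2 fold change was 0.29 (95% interval 0.09 to 0.50), with an adjusted p of 0.0658 among peaks and 0.0308 among genes. Without 1 library at a time the gene-level change stayed between 0.20 and 0.40. As at Ppara, these fits leave 1 library in a group, and only the size of the change is given.

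Acadm held 379 and 394 reads in KL and 375 and 358 in KLG4m/m, a log2 fold change of −0.02 (95% interval −0.19 to 0.15, adjusted p = 0.914). It was the strongest of all 20 peaks, and its groups overlapped in CPM. Acadl held 228 and 216 against 251 and 214 (0.12, 95% interval −0.09 to 0.33, adjusted p = 0.488). Hadha, the α subunit of the trifunctional protein, held 313 and 304 against 340 and 300 (0.11, 95% interval −0.07 to 0.29, adjusted p = 0.475). In CPM both KLG4m/m libraries were above both KL libraries at Acadl and at Hadha. At Acadl this was by little, with the lower KLG4m/m library at 66.3 CPM and the higher KL library at 65.6 CPM. At Hadha these were 92.9 and 90.0 CPM. The Hadha start faces that of Hadhb, the β subunit, 273 bp away in GRCm38.p6, and Hadhb has no listed peak of its own, so the Hadha peak cannot be told apart from one of Hadhb.

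At 11 of the 20 peaks, and at 9 of the 10 genes' strongest peaks, the 95% interval lay within 1.5-fold in either direction. The strongest peak whose interval did not was that of Ppara, which reached 0.661 of the KL level at its lower end.

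**Figure D3:**
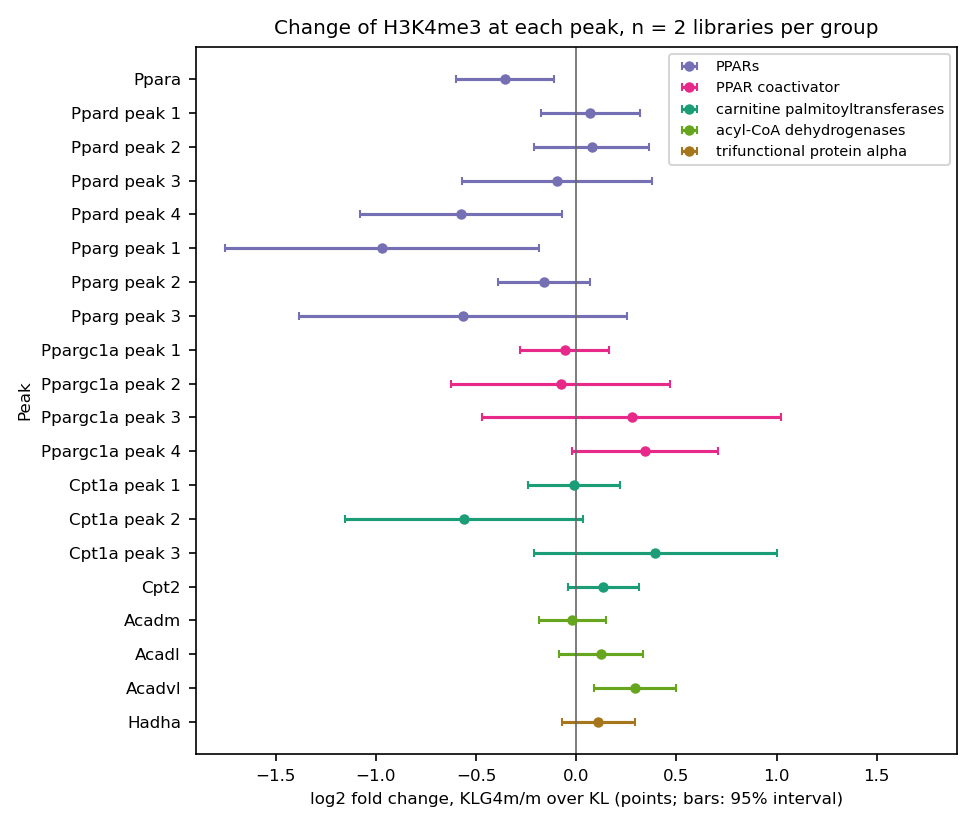
The log2 fold change of H3K4me3 in KLG4m/m over KL at each of the 20 peaks, with bars for the 95% interval of the edgeR fit (n = 2 libraries per group) and colours for the genes' roles. The promoter of Ppara lies at −0.36 and that of Acadvl at 0.29, and the widest bars belong to peaks with few reads, such as the first Pparg peak at −0.97.

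The wider pathway was followed in 5 lists, chosen with earlier results of these data known, again by summed reads per gene. Of 24 PPAR targets 17 had a peak, of which 6 were lower and 1 was higher in KLG4m/m; of all genes 9.63% were lower and 5.38% higher. The median log2 fold change was −0.19, against 0.00 over all genes, and 76.5% of the targets with a peak were below 0, against 49.7% of all genes. The 6 lower calls were 3 without KL replicate 1, 2 without KL replicate 2 and 0 without either KLG4m/m replicate, and DESeq2 made 0. Among the targets named below, the call was lost without KL replicate 1 for Pdk4, Ucp3 and Ucp2, and without KL replicate 2 for Cd36 and Ucp3. The other lost calls were of targets not named here. Cd36, the fatty acid uptake receptor, had 47.9 and 53.0 CPM in KL and 35.7 and 31.8 CPM in KLG4m/m (−0.58, adjusted p = 0.000908). Acot1, an acyl-CoA thioesterase with near-identical neighbours, among which reads could be split, had 60.8 and 60.5 CPM against 42.1 and 42.9 CPM (−0.51, adjusted p = 0.00103). At both genes every KLG4m/m library was well below the KL pair. Pdk4, the kinase that holds back pyruvate oxidation, had 46.1 and 38.3 CPM against 25.6 and 33.9 CPM (−0.51, adjusted p = 0.00870). Ucp3, a mitochondrial carrier, had 16.7 and 15.8 CPM against 9.30 and 10.2 CPM (−0.74, adjusted p = 0.0165). Its relative Ucp2 was the target that was higher, with 156.9 and 172.2 CPM against 188.3 and 190.3 CPM (0.20, adjusted p = 0.0288). At the Ucp2 peak nearest the start the change was 0.22 (adjusted p = 0.115), and at its peaks within 1 kb 0.21 (adjusted p = 0.0224). Ucp2 is also expressed in immune cells, and macrophage and lymphocyte marker levels were higher in KLG4m/m, as given with the markers; their part in this value was not tested. Likewise, Cd36 is found in several lung cell types, and alveolar type 2 markers were lower. Of 7 adipocyte markers, 3 of which (Adipoq, Cidec and Fabp4) are also in the target list, 4 had a peak and none passed (37.8 to 40.0 CPM in KL, 47.1 to 48.1 CPM in KLG4m/m).

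Of 18 PPAR partners and co-regulators 16 had a peak, none was higher and 3 were lower, beside the 9.63% of all genes that were lower. These were the coactivator Ncoa1 (28.0 and 32.2 CPM in KL, 20.3 and 21.3 CPM in KLG4m/m, −0.53, adjusted p = 0.0182), the PGC-1-related coactivator Pprc1 (98.9 and 100.8 CPM against 84.0 and 79.3 CPM, −0.29, adjusted p = 0.0192) and the corepressor Nrip1 (38.9 and 52.1 CPM against 34.9 and 33.6 CPM, −0.41, adjusted p = 0.0309). The median of the 16 was −0.02. None of the 3 passed with DESeq2 or without KL replicate 2, where Nrip1 was at −0.17, and Pprc1 did not pass without KL replicate 1. At Ncoa1 the peak nearest the start was at −0.25 (adjusted p = 0.481) and the peaks within 1 kb at −0.47 (adjusted p = 0.0625), while at Nrip1 the peaks within 1 kb were at −0.99 (adjusted p = 4.37e-05).

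Of 8 other genes of the carnitine shuttle 7 had a peak. Slc22a5, the carnitine importer, was lower (71.5 and 73.7 CPM against 56.4 and 59.8 CPM, −0.32, adjusted p = 0.0261), and the median was −0.10. Of 18 other enzymes of mitochondrial β-oxidation 16 had a peak. Acads, the short-chain dehydrogenase, was lower (90.3 and 92.1 CPM against 69.2 and 74.0 CPM, −0.35, adjusted p = 0.00585), none was higher, and the median was 0.06. All 14 genes of peroxisomal β-oxidation had a peak. Abcd3, a peroxisomal fatty acyl-CoA transporter, was lower (37.5 and 36.3 CPM against 22.7 and 25.9 CPM, −0.60, adjusted p = 0.00282), and the median was 0.04. The 1 lower gene in each of these lists, of 7, 16 and 14 with a peak, stands beside 9.63% lower over all genes, so their shares are near the background. The Slc22a5 call was lost without either KL replicate and within 1 kb of the start (adjusted p = 0.0524), and the Acads call without KL replicate 2. Without KLG4m/m replicate 3 or 4 none of the 20871 genes passed, so none of the calls in the 5 lists did, and DESeq2 made none of them.

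**Figure D4:**
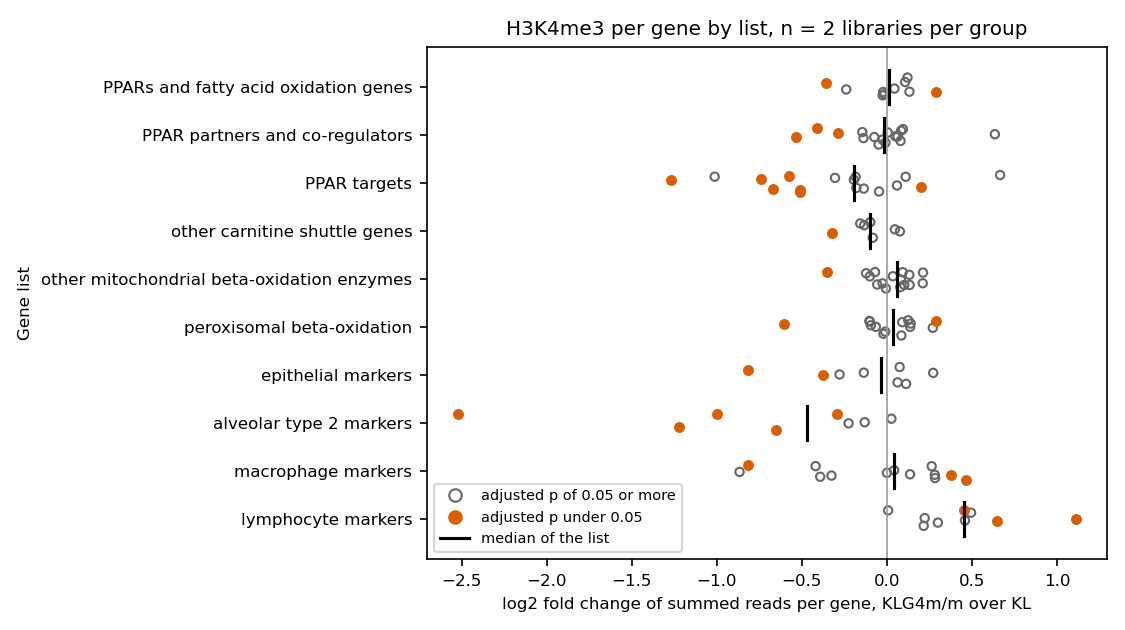
The log2 fold change of summed H3K4me3 reads per gene, KLG4m/m over KL (n = 2 libraries per group), for the 10 genes, the 5 pathway lists and 4 marker lists; 1 point per gene, filled where the edgeR adjusted p was under 0.05, with a bar at each list's median. The PPAR targets have 6 filled points below 0 and 1 above it, while the alveolar type 2 markers have their median at −0.47 and the lymphocyte markers at 0.45.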

How the data were processed

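The labels describe pAG-MNase cleavage, although the assay is named CUT&Tag. Reads were trimmed with Trim Galore 0.6.10, aligned with BWA 0.7.15 and freed of duplicates with Picard 2.17.3, peaks were called with MACS2 2.2.7.1, and HOMER 4.11.1 is named for annotation, per the submitters' processing notes. The authors deposited 1 table of 35486 peaks with whole-number counts of reads per peak and library. It also holds each peak's start, end and distance to a transcription start, CPM values, and the authors' own comparison (fold change and p-values). Neither the CPM nor the comparison was used. The table does not name its build, and its coordinates, given as it writes them, do not match GRCm38.p6.

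Counts were tested with edgeR 4.0.16 in R 4.3.3 (quasi-likelihood, TMM, no covariate, no filter, two-sided, Benjamini-Hochberg over all peaks or genes). DESeq2 1.42.0 and limma 3.58.1 were alternatives. Tested on simulated data for this comparison, edgeR found 129 of 200 peaks changed 2-fold among 35486, with 0 false calls. With reads summed per gene, it found 104 of the 198 genes that held those peaks among 20871, with 3 false calls. All simulated peaks shared 1 dispersion (0.00133, the spread beyond sampling noise), and every planted change was 2-fold. False calls in the observed counts and the recovery of smaller changes were therefore not tested. Replicates differed by more than sampling noise (chi-square per degree of freedom 1.13 in KL and 1.23 in KLG4m/m) and were counted separately. Intervals are 95% and cover the fit's error.

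The members and lists were chosen with earlier results of these data known. Named were all 10 members, of each pathway list up to 4 genes past the threshold in each direction by smallest adjusted p, Gpx4 and Stk11, and Epcam, Nkx2-1, Ptprc and Pecam1. A few items are left out and not reported here. Promoter windows come from RefSeq (GRCm38.p6).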

Additional observations from a re-analysis of the deposited data

How the results depend on the processing

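No member peak changed direction in a way that passed the test. The Ppara peak was called lower (1 member peak in place of 0) with edgeR scaled on the median ratio and with a filter at a mean of 10 CPM. Among member genes, the 1 higher (Acadvl) and the 1 lower (Ppara) became 0 and 0 with DESeq2, with limma on quantile-normalized values and with an added 1.5-fold requirement. Leaving out 1 library at a time gave 0 to 1 member genes higher and 0 to 0 lower. Adjusted p ranged from 0.0275 to 0.403 for Ppara and from 0.0263 to 0.385 for Acadvl over 13 alternatives. Over all peaks, 1099 higher and 1960 lower became 33 and 250 with DESeq2, where 88.3% of called peaks were lower against 64.1% in the edgeR fit, and 486 and 866 with quantile-normalized limma; 712 were higher with the 1.5-fold requirement. Leaving out 1 library gave 0 to 702 higher and 0 to 1459 lower. Without KLG4m/m replicate 3 or 4 no peak passed in edgeR, with 5486 and 5178 at an unadjusted p under 0.05, where the fit's prior degrees of freedom were 2.63. The 6 lower PPAR targets became 0 with DESeq2, 2 with quantile-normalized limma, 3 and 2 without KL replicate 1 or 2, and 0 without either KLG4m/m replicate. No paired analysis was possible because the KL and KLG4m/m libraries share no replicate number. Peaks with under about 20 reads per library limit the intervals at the outer Pparg peaks.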
